A study of Mus musculus with 3 samples.

Results

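The p53 pathway genes examined here are Trp53 itself, its inhibitors and genes that the p53 protein is known to switch on, 32 in all, named as a list of symbols. Of these, 31 were found among the 15058 genes of the deposited tables. Tigar appears in the tables under its clone name 9630033F20Rik, Pidd1 was found by gene ID under its older symbol Lrdd, and Gdf15 was not analysed here. Cdkn1a and the caspase and Bcl2 genes were set aside. The libraries held RNA of erythroblasts, the nucleated precursors of red cells, taken at E10.5 from the blood of mouse embryos and gated on CD71 and Ter119. The first is a pool of CD71+ Ter119-high cells from conditional knockout (cKO) embryos with genotype Drosha fl/fl;cdh5-cre+, recorded as null for Drosha and called the Drosha-null library here. The second holds CD71+ Ter119-low cells of the same cKO genotype, with Drosha recorded at the wild-type level, and is called the Ter119-low library. The control library holds CD71+ Ter119-high cells of Drosha fl/fl or Drosha fl/+ embryos, so every group carried at least 1 floxed Drosha allele. Cre was driven by Cdh5, a gene of endothelial cells, from which embryonic blood arises, and the design text speaks of 5 embryos per pool. Each group had 1 library, and no Ter119-low control was analysed here. Gate and genotype therefore cannot be told apart between the Ter119-low library and the control, nor gate and Drosha state between the cKO libraries.

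Drosha counts, which check the labels, were 122 in the Drosha-null, 244 in the Ter119-low and 324 in the control library, with a log2 ratio of −1.81 for Drosha-null over control (−2.13 to −1.51) and −0.49 for Ter119-low over control (−0.74 to −0.25). Drosha transcript thus remained in the library recorded as null, and the library recorded at the wild-type level lay below the control. Total counts were 9325814, 9418474 and 9497425 in that order. All 12 erythroid markers examined, among them the embryonic globins, Alas2 and Slc4a1, had counts in every library. They summed to 1582476 counts in the Drosha-null, 2162486 in the Ter119-low and 2348832 in the control library. By the rule given below, 4 of them (33.3%) were called lower in the Drosha-null library over the control, beside 7.79% of all genes measured. Of the markers of other cells, the 12 endothelial markers summed to 277 counts in the Drosha-null, 109 in the Ter119-low and 98 in the control library, and 8 cardiac muscle markers to 306, 61 and 76, of which Ttn gave 181, 42 and 37. Megakaryocyte and platelet markers summed to 733, 517 and 425 counts in that order, and placenta markers to 6, 85 and 112. Fibroblast and mesenchyme markers summed to 113, 61 and 65 counts and macrophage markers to 59, 24 and 45. Epithelial markers summed to 55, 26 and 31 counts and leukocyte markers to 23, 2 and 6. Every sum of other cells but placenta was highest in the Drosha-null library, where the placenta sum was lowest. In the scaled counts (CPM) defined below, the macrophage sum was 5.29 there and 5.36 in the control. Not every cardiac marker followed Ttn, as Tnnt2 had 20, 0 and 16 counts. All 12 endothelial markers had counts in the Drosha-null library, as they did in the control, against 10 in the Ter119-low library. The part that these marker differences have in the ratios below was not tested. Counts were scaled by the trimmed mean of M values (TMM), with factors of 1.19 for the Drosha-null, 0.946 for the Ter119-low and 0.885 for the control library, so that equal raw counts correspond to a lower scaled level in the Drosha-null library. Ratios are given on the log2 scale with 95% Clopper-Pearson counting intervals. A gene counted as measured at 1 CPM (scaled counts relative to library size) or more in the higher library of a pair. It was called higher or lower when the libraries differed at least 2-fold and the interval of the ratio left out 1. With 1 library per group there is no spread between embryos or pools to test against. Intervals and floors cover counting error only. They treat reads as independent molecules, which reads are not, so the intervals can be too narrow. In pooled cells a lower share of expressing cells and less RNA per cell cannot be told apart.

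The p53 protein is a transcription factor that is kept scarce by the ubiquitin ligase Mdm2 and held inactive by the related protein Mdm4. Damage to DNA, or a fault in making ribosomes, frees p53 from Mdm2, and it then binds DNA as a tetramer and activates genes that stop the cell cycle, repair DNA, alter metabolism or start cell death. Much of this control is exerted on the protein, so the Trp53 transcript does not show p53 activity. In erythroid cells p53 is best known from anaemias with defective ribosomal proteins, in which its activation limits red-cell production.

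Of the 31 listed genes, 30 were measured between the Drosha-null and the control library, and 9 of these (30.0%) were called higher and 3 lower. Over all 10769 genes measured, 12.4% were called higher and 7.79% lower, or 20.2% either way. By total counts the calls among the p53 pathway genes were 11 higher and 1 lower, and among all genes 2502 and 294. Ccng1, Trp53inp1, Psrc1, Dcxr, Phlda3, Zmat3, Rrm2b, Eda2r and 9630033F20Rik made up the higher group. Gadd45a, Aen and Plk3 made up the lower group. The median log2 ratio of the 30 genes was 0.28, beside −0.02 for all genes measured, and it remained 0.28 with the genes at 0 counts placed at their bound. Of the higher genes, Phlda3, Eda2r and 9630033F20Rik lay under 1 CPM in the control and passed the low-value filter through the Drosha-null library alone. Plk3, at 0.897 CPM in the Drosha-null and 2.38 CPM in the control library, passed it through the control alone. These 4 therefore had to differ in the direction seen. When scaled by total counts the median of all genes moved up by 0.45 in this comparison, and directions below are therefore relative to TMM.

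A transcript start can be set beside its promoter sequence for 23 of the 31 genes, from RefSeq windows of 250 bases before to 50 bases after the start (build GRCm38.p6). The p53 response element consists of a pair of half-sites of 10 bases, which were searched as 2 matches to the p53 half-site consensus with 0 to 13 bases between them and at most 3 mismatches, keeping the C and G of each half-site core. Because the consensus is its own reverse complement, a single pass covers both strands. Of the 28 windows of these genes, 12 (42.9%) held such an element, beside 15.6% of 32851 windows of all genes. A pair of overlapping Aen windows holds the same element, so 11 genes had one. At most 2 mismatches were reached by 4 windows (14.3%), beside 4.09% of all windows. At most 1 was reached by Ccng1 alone (3.57%), beside 0.627%. These genes are on the list because p53 is known to act on them, so the shares are a description. The shorter motif CATG, read on both strands since it is its own reverse complement and often part of a half-site, was in 32.1% of these genes' windows, in 49.5% of the windows of genes in the tables and in 61.1% of all windows.

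The windows printed here are the 4 best matches and 2 of the genes called, 9630033F20Rik (higher) and Aen (lower), so that genes of either direction can be compared. They lie at chr11:40755237-40755536 (minus strand) for Ccng1, chr8:22185770-22186069 (minus) for Ckap2, chr6:67037358-67037657 (minus) for Gadd45a, chr10:41887189-41887488 (plus) for a start of Sesn1, chr6:127109503-127109802 (minus) for 9630033F20Rik and chr7:78895808-78896107 (plus) for a start of Aen. Capitals mark the half-sites, and any bases between them are in lower case. Each is written 5′ to 3′ on the strand of its gene.
Ccng1: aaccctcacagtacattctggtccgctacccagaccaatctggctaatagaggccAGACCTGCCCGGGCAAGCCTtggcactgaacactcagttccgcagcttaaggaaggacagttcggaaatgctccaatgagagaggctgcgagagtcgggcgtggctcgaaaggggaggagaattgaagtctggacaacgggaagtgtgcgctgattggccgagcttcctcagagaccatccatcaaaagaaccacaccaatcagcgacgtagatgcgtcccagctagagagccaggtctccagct
Ckap2: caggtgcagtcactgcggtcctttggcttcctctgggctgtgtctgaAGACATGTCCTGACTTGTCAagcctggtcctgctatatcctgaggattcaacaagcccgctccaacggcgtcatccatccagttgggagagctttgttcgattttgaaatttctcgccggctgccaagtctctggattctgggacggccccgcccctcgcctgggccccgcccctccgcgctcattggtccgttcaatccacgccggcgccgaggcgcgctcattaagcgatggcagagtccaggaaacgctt
Gadd45a: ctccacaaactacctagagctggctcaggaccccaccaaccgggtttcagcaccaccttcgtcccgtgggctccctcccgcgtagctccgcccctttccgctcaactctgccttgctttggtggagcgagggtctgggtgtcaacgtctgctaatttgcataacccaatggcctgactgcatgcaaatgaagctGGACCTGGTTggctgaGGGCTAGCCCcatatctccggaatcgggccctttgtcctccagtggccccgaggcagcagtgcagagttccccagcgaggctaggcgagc
Sesn1: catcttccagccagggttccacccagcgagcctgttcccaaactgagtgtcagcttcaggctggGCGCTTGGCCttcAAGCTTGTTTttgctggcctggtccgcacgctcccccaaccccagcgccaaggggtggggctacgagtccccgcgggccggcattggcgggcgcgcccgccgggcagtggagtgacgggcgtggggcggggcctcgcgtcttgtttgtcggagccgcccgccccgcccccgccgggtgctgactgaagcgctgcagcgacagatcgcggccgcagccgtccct
9630033F20Rik: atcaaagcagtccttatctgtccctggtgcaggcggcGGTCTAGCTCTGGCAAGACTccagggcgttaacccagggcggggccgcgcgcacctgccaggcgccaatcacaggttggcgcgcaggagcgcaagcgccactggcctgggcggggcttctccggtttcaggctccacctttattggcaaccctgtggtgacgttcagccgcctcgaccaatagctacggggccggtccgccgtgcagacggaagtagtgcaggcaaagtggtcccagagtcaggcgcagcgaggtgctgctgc
Aen: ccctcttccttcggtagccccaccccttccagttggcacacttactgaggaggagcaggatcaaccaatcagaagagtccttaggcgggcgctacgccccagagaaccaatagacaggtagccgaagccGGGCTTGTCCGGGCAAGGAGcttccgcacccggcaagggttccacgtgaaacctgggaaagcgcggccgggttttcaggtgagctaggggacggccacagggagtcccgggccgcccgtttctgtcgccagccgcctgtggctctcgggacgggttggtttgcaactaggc

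In Ccng1 the element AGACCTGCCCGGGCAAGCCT begins 195 bases before the start, has 1 mismatch and no bases between its half-sites. The element of Ckap2, AGACATGTCCTGACTTGTCA, has 2 mismatches and begins 203 bases before the start. Elements did not go with 1 direction of the transcript. Among the 9 genes called higher in the Drosha-null library over the control, 6 had a window and 3 of them (Ccng1, 9630033F20Rik and Dcxr) held an element. All 3 genes called lower (Plk3, Gadd45a and Aen) held one, as did 5 of the 14 uncalled genes with a window.

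Of the 5 genes of p53 and its feedback loop, 2 (40.0%) were called higher in the Drosha-null library over the control and 0 lower. Over all genes the shares were 12.4% and 7.79%. The median of the 5 genes was 0.41. Trp53 had 1631 counts in the Drosha-null, 1582 in the Ter119-low and 1591 in the control library, with a log2 ratio of −0.37 for Drosha-null over control (−0.47 to −0.27), or 0.06 with total counts. Its level per gene length was also close in the 3 libraries, at 101, 97.1 and 97.0 FPKM, which ranked it second among the listed genes in the Drosha-null library and first in the others. FPKM is the authors' own scale and follows total counts. The inhibitors stood slightly above the control. Mdm2 had 892 counts in the Drosha-null, 591 in the Ter119-low and 546 in the control library, and Mdm4 had 944, 691 and 535. Drosha-null over control stood at 0.30 (0.15 to 0.46) for Mdm2 and 0.41 (0.26 to 0.57) for Mdm4, both short of the 2-fold rule.

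Ccng1, which encodes cyclin G1, a partner of a protein phosphatase that acts on Mdm2, had the highest FPKM of the listed genes in the Drosha-null library. It had 3388 counts there, 941 in the Ter119-low and 742 in the control library, which places the Drosha-null library far above the other two. The log2 ratio was 1.78 over the control (1.67 to 1.90) and 1.52 over the Ter119-low library (1.42 to 1.63). In FPKM it stood at 106 in the Drosha-null library, above Trp53, and at 29.1 and 22.7 in the Ter119-low and control libraries. The sum over the 31 genes was 1083 CPM in the Drosha-null library against 788.1 in the control, a ratio of 1.37, and without Ccng1 the ratio was 1.11. Trp53inp1, whose stress-induced protein promotes p53 activity, had 244 counts in the Drosha-null, 65 in the Ter119-low and 28 in the control library. It was called higher in all 3 comparisons, at 2.69 for the Drosha-null library over the control (2.15 to 3.34), 1.12 for Ter119-low over control (0.47 to 1.82) and 1.58 for Drosha-null over Ter119-low (1.19 to 2.00).

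**Figure D1:**
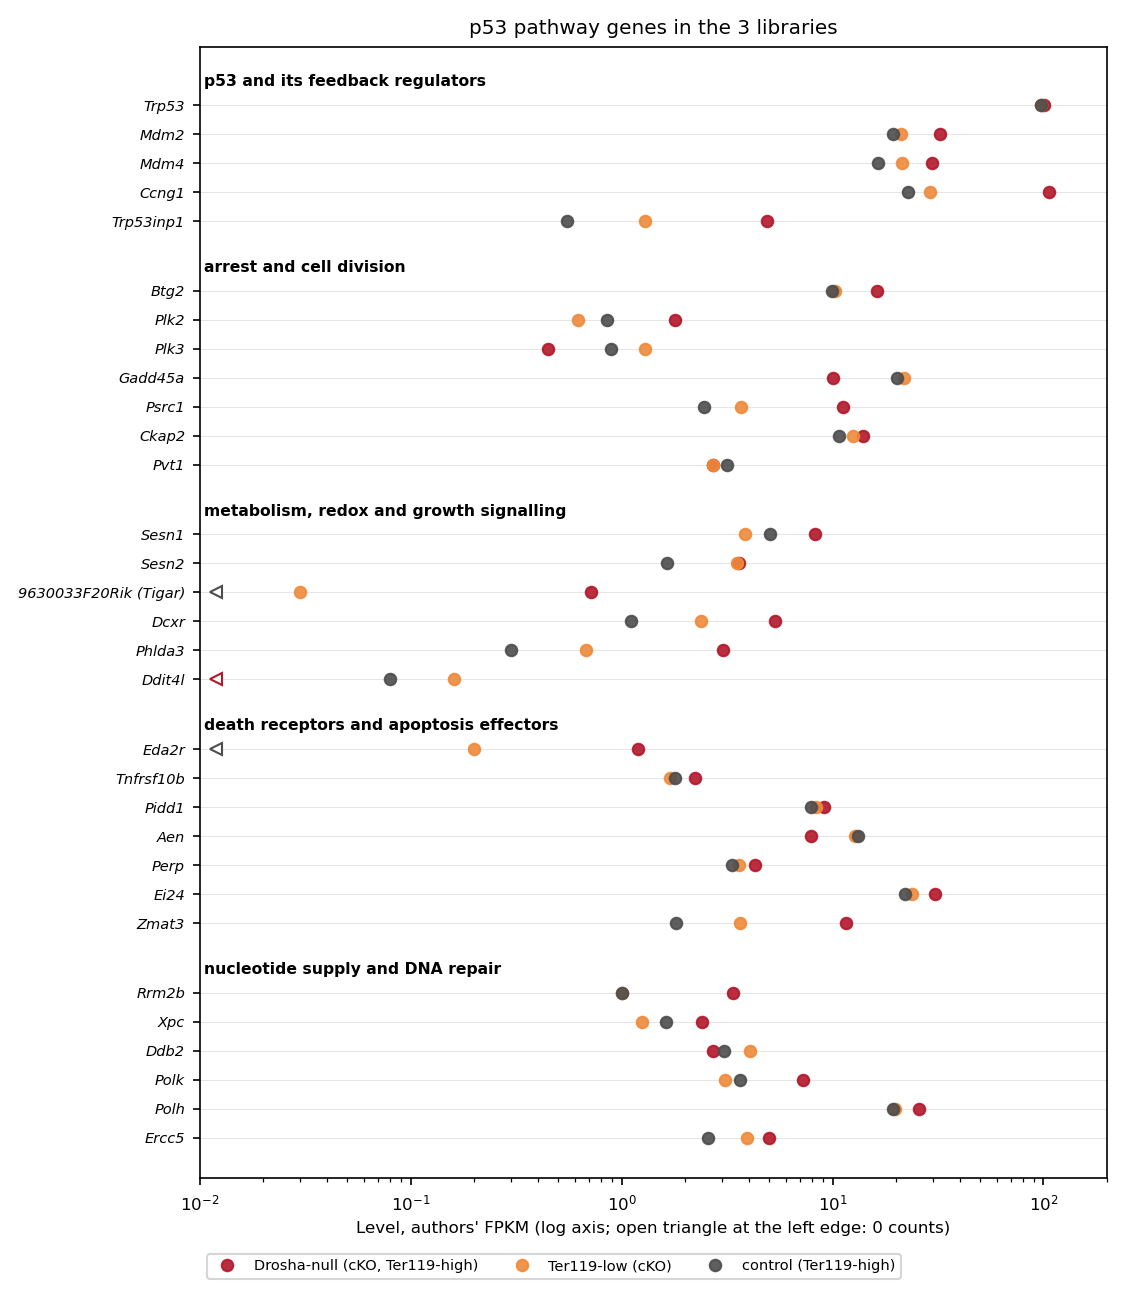
Levels of the 31 listed p53 pathway genes in the Drosha-null, Ter119-low and control libraries in the authors' FPKM, on a log axis, with 1 point per library and open triangles for libraries with 0 counts. Trp53 has nearly the same level in all 3 libraries, whereas Ccng1 stands at 106 FPKM in the Drosha-null and 22.7 FPKM in the control library; FPKM follows total counts, by which most genes stand higher in the Drosha-null library.

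Of 7 measured genes that act on cell division, 1 (14.3%) was called higher and 2 (28.6%) lower for Drosha-null over control. The shares over all genes were 12.4% and 7.79%, so the share higher was close to that of all genes. Plk3, among the lower, passed the filter through the control library alone. The median was −0.06, or 0.38 by total counts, where the median of all genes was 0.43. Psrc1, which encodes a spindle protein, had 174 counts in the Drosha-null, 58 in the Ter119-low and 39 in the control library. Its log2 ratio was 1.74 over the control (1.24 to 2.29) and 1.25 over the Ter119-low library (0.83 to 1.72). Ckap2, another spindle gene and the one whose promoter window holds the second element above, had 330, 298 and 259 counts and a ratio to the control of −0.06 (−0.30 to 0.18), or 0.38 with total counts. The arrest gene Gadd45a, which encodes a stress sensor that binds PCNA and Cdk1, was among the genes called lower. It had 108 counts in the Drosha-null library, against 238 in the Ter119-low and 223 in the control library. The log2 ratio was −1.45 over the control (−1.80 to −1.12) and −1.46 over the Ter119-low library (−1.80 to −1.13). A noncoding gene, E230016M11Rik, shares 337 exon bases with Gadd45a on the other strand and had 2, 23 and 18 counts in the Drosha-null, Ter119-low and control libraries; whether the counting used strand is not given.

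The Polo-like kinase genes differed from each other. Plk3, a stress-response kinase, had 10 counts in the Drosha-null, 29 in the Ter119-low and 20 in the control library, and its deposited estimates are fractional. It was called lower in the Drosha-null library over the control (−1.37, −2.67 to −0.24) and over the Ter119-low library (−1.81, −3.06 to −0.78), and by total counts it was not called over the control (−0.94). Plk2, a related kinase that acts on centrosomes, had 46, 16 and 22 counts, and was called higher over the Ter119-low library (1.17, 0.35 to 2.12) and not over the control (0.64, −0.11 to 1.46). By total counts Plk2 was called over the control as well, at 1.07. Btg2, an antiproliferative gene that recruits the deadenylation machinery, had 457 counts in the Drosha-null, 293 in the Ter119-low and 286 in the control library (0.27 over the control, 0.05 to 0.49). Pvt1, a long noncoding RNA gene beside Myc, had 76, 77 and 90 counts, and its ratio to the control of −0.65 (−1.11 to −0.19) missed the size rule.

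Among genes of metabolism, redox balance and growth signalling, 3 of 5 measured were called higher for Drosha-null over control and 0 lower, beside 12.4% and 7.79% of all genes, and the median was 1.75. Phlda3 and 9630033F20Rik are among them and passed the filter through the Drosha-null library alone, so the count and the median are a description. Phlda3, which encodes an inhibitor of AKT at the membrane, had 40 counts in the Drosha-null, 9 in the Ter119-low and 4 in the control library. The log2 ratio was 2.76 over the control (1.45 to 4.86) and 1.77 over the Ter119-low library (0.76 to 3.06). 9630033F20Rik, or Tigar, which encodes a fructose bisphosphatase that slows glycolysis, had 24 counts in the Drosha-null library, 1 in the Ter119-low and 0 in the control library. The Drosha-null library was 6.03-fold higher than a floor of 3 counts in the control library, with a counting interval that begins at a log2 ratio of 2.18. Over the 1 count of the Ter119-low library, which lies under that floor, it was 19.2-fold higher, with an interval of 3.13 to 789. These 2 folds rest on different bases and cannot be compared. Dcxr, a carbonyl reductase gene, had 42, 19 and 9 counts (1.75 over the control, 0.76 to 3.04).

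The sestrins, which restrain mTORC1 and oxidative stress, differed in which cKO library stood high. Sesn2 had 88 counts in Drosha-null cells and 87 in Ter119-low cells, against 41 in the control. Both cKO libraries lay above the control, at 0.69 (0.14 to 1.27) and 0.99 (0.45 to 1.57), and neither was called; by total counts both were, at 1.12 and 1.09. Sesn1 had 210 counts in the Drosha-null, 104 in the Ter119-low and 134 in the control library, with 0.24 over the control (−0.08 to 0.56) and 0.69 over the Ter119-low library (0.35 to 1.04). Ddit4l, another mTORC1 inhibitor gene, was under the filter with 0, 4 and 2 counts.

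Death receptors and apoptosis effectors had 7 measured genes, of which 2 (28.6%) were called higher and 1 (14.3%) lower for Drosha-null over control. Over all genes the shares were 12.4% and 7.79%. Eda2r, among the higher, passed the filter through the Drosha-null library alone, so the count is a description. The median was −0.08 (0.36 by total counts). Eda2r, which encodes a receptor of the tumour necrosis factor family and lies on the X chromosome, had 40 counts in the Drosha-null, 9 in the Ter119-low and 0 in the control library. Set against a floor of 3 counts in the control library, its level was 10.1-fold higher in Drosha-null and 2.83-fold higher in Ter119-low cells. The counting intervals, which also carry the error of the 40 and 9 counts, begin at log2 ratios of 2.96 and 0.90. Its log2 ratio of Drosha-null over Ter119-low was 1.77 (0.76 to 3.06). Zmat3, a zinc finger RNA-binding protein gene that regulates splicing and RNA stability, had 839 counts in the Drosha-null, 266 in the Ter119-low and 134 in the control library. It was called higher in the Drosha-null library over the control (2.23, 1.97 to 2.51) and over the Ter119-low library (1.33, 1.13 to 1.54), and stood at 0.90 in the Ter119-low library over the control (0.60 to 1.22). The deposited estimates of Zmat3 are also fractional.

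Aen, which encodes an exonuclease active in apoptosis, had 181 counts in the Drosha-null, 298 in the Ter119-low and 303 in the control library. The log2 ratio was −1.15 over the control (−1.42 to −0.88) and −1.04 over the Ter119-low library (−1.32 to −0.77), and by total counts neither was called, at −0.72 and −0.70. The other 4 genes were not called in any comparison. Ei24, an endoplasmic reticulum protein gene, had 592 counts in the Drosha-null, 466 in the Ter119-low and 434 in the control library (0.04 over the control, −0.14 to 0.22). The TRAIL receptor gene Tnfrsf10b, with fractional counts, had 65, 50 and 53 counts (−0.12, −0.66 to 0.44). Pidd1, whose protein forms a platform that activates caspase-2, had 241, 222 and 213 counts (−0.23, −0.50 to 0.04), and Perp, a desmosome and apoptosis gene, 73, 62 and 58 (−0.08, −0.59 to 0.45). By total counts the ratios of Tnfrsf10b, Pidd1 and Perp were above 0, at 0.32, 0.20 and 0.36.

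Of 6 genes of nucleotide supply and DNA repair, 1 (16.7%) was called higher for Drosha-null over control and 0 lower. Over all genes the shares were 12.4% and 7.79%. The median of the 6 genes was 0.32. The called gene was Rrm2b, which encodes the p53-inducible subunit of ribonucleotide reductase, with 140 counts in the Drosha-null, 42 in the Ter119-low and 43 in the control library. Its log2 ratio was 1.28 over the control (0.79 to 1.82) and 1.40 over the Ter119-low library (0.91 to 1.95). Ter119-low over control was −0.12 (−0.77 to 0.53). An antisense gene, Gm49085, shares 734 exon bases with Rrm2b. The translesion polymerase genes differed from each other: Polk had 282 counts in the Drosha-null, 121 in the Ter119-low and 145 in the control library (0.55 over the control, 0.26 to 0.85), and Polh had 601, 469 and 462 (−0.03, −0.21 to 0.15, and 0.41 by total counts).

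The nucleotide excision repair genes were not called. Ercc5, whose protein cuts 3′ of the lesion, had 184 counts in the Drosha-null, 147 in the Ter119-low and 97 in the control library. It stood at 0.51 over the control in both cKO libraries, with intervals of 0.15 to 0.89 for the Drosha-null and 0.14 to 0.90 for the Ter119-low library. Xpc, a damage sensor gene, had 80, 42 and 55 counts (0.13 over the control, −0.38 to 0.66). Ddb2, the sensor of ultraviolet lesions, had 47 counts in the Drosha-null, 71 in the Ter119-low and 54 in the control library, and its ratio of Drosha-null over Ter119-low, −0.91 (−1.48 to −0.37), missed the size rule. Ddb2 shares 652 exon bases with Acp2 on the other strand, and Acp2 had 134, 106 and 99 counts. Antisense or opposite-strand exons also overlap 9630033F20Rik (122 bases), Ei24 (324 bases), Plk3 (84 bases) and Pvt1 (109 bases), so reads of these genes and their partners could not be told apart without strand.

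**Figure D2:**
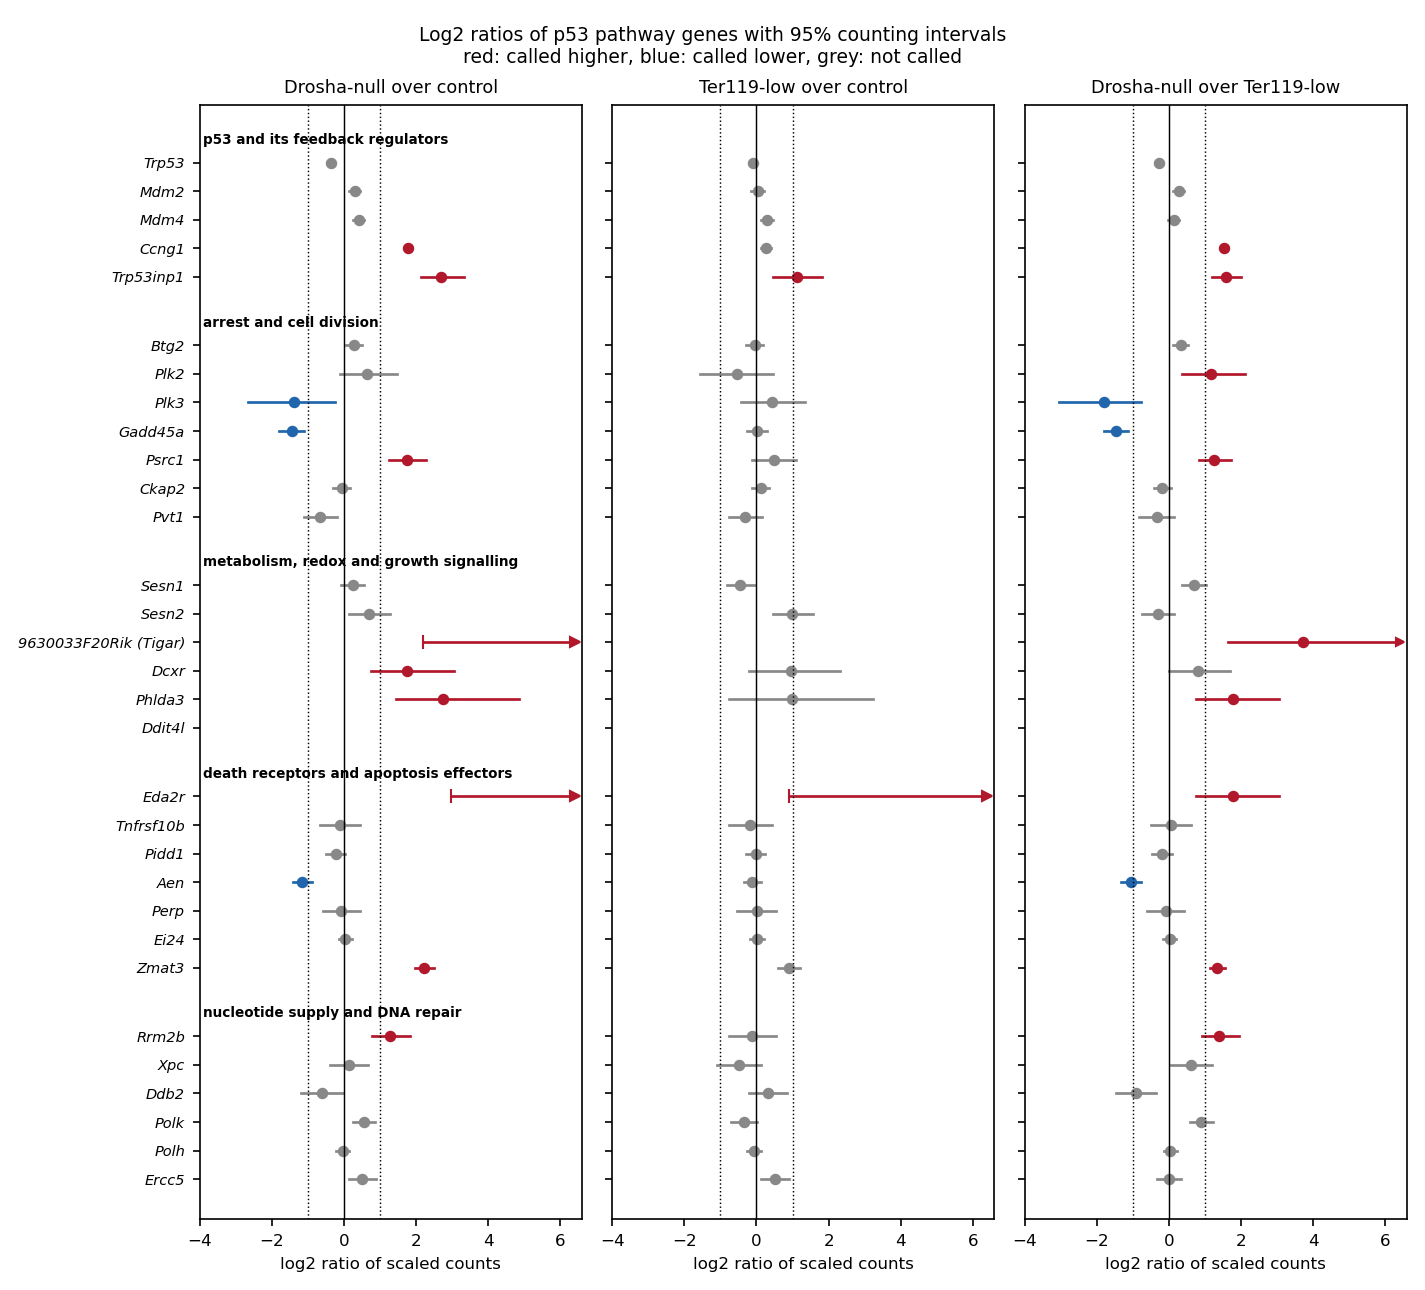
Log2 ratios of scaled counts for the listed p53 pathway genes in each pair of libraries, with 95% counting intervals, a solid line at 0 and dotted lines at the 2-fold size rule. Arrows mark intervals that run off the axis, a bar without a point starts at the lower interval bound of a gene with 0 counts in the control, and an empty line is a gene not measured. Ccng1, Trp53inp1, Psrc1, Phlda3, Zmat3, Rrm2b, Eda2r and 9630033F20Rik are red in both comparisons of the Drosha-null library.

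Between the cKO libraries, 9 of 30 measured genes (30.0%) were called higher in the Drosha-null library over the Ter119-low library and 3 lower, where 10.8% and 5.94% of 10795 genes were called, or 16.8% either way. By total counts 12 were called higher and 2 lower, beside 2038 and 304 of 10894 genes. The higher genes were Ccng1, Trp53inp1, Psrc1, Phlda3, Zmat3, Rrm2b, Eda2r, 9630033F20Rik and Plk2, and the lower ones Gadd45a, Aen and Plk3. Here 9630033F20Rik, at 0.112 CPM in the Ter119-low library, passed the filter through the Drosha-null library alone. Plk3, at 0.897 CPM in the Drosha-null library, passed it through the Ter119-low library alone, so both genes had to differ. Phlda3 and Eda2r, at 1.01 CPM in the Ter119-low library, lay just above the filter. The median was 0.20, beside −0.02 for all genes. This comparison shares the Drosha-null library with the first, so the 2 are not independent. Dcxr, called over the control, stood at 0.80 here (0.01 to 1.69).

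In the Ter119-low library over the control, 2 of 29 measured genes (6.90%) were called higher, Trp53inp1 and Eda2r, and 0 lower, where 2.90% and 2.76% of 10591 genes were called, or 5.66% either way. The median of the listed genes was 0.02 and that of all genes 0.00. The counting interval lay above 0 for 7 of the 29 genes and below 0 for 1, beside 13.5% and 14.2% of all genes. Eda2r rested on 9 counts, with 0 in the control, so it passed the filter through the Ter119-low library alone. By total counts it lay under 1 CPM and was no longer measured. Besides these genes, the intervals of Mdm4 (0.28, 0.12 to 0.45), Ccng1 (0.26, 0.12 to 0.40), Sesn2, Zmat3 and Ercc5 lay above 0, and that of Sesn1 (−0.45, −0.83 to −0.07) below it. Both comparisons with the control share that library. The 3 genes called lower in the Drosha-null library stood at 0.01 (Gadd45a), −0.11 (Aen) and 0.44 (Plk3) in the Ter119-low library over the control.

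The order of the libraries was described over the 30 genes measured in any comparison. The Drosha-null library was the highest for 18 of the 30, against 40.5% of all 10986 such genes. An order of Drosha-null above Ter119-low above control was seen for 12 (40.0%), against 23.4% of all genes. By total counts the first share was 83.3% for these genes and 64.2% for all genes, and the second 63.3% and 43.0%. Steps between neighbouring libraries can lie within counting error, as for Mdm2 between the Ter119-low and control libraries (0.03, −0.14 to 0.20). The filter also fixed part of the order for some genes. 9630033F20Rik reached 1 CPM in the Drosha-null library alone and had to be highest there. Its step from Ter119-low to control rests on 1 count against 0. Eda2r and Phlda3 lay under 1 CPM in the control alone, which had to be their lowest library. Plk3 lay under 1 CPM in the Drosha-null library alone, which had to be its lowest. The shares are therefore a description.

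Gene length moved with the ratio across all genes, so it was set beside these values. In the Drosha-null library over the control, the median of the shortest of 10 length classes was −0.59 and that of the longest 0.29. The p53 pathway genes had a median length of 2863 bases and all genes measured 2894 bases. Centred on the median of its own length class, Dcxr stood at 2.34, Phlda3 at 3.04, Ccng1 at 1.73, Zmat3 at 1.94, Trp53inp1 at 2.48 and Gadd45a at −1.17. With every ratio centred in this way the calls over the control were again 9 higher and 3 lower. Of all 10769 genes, 1293 were called higher and 616 lower with the same centring.

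**Figure D3:**
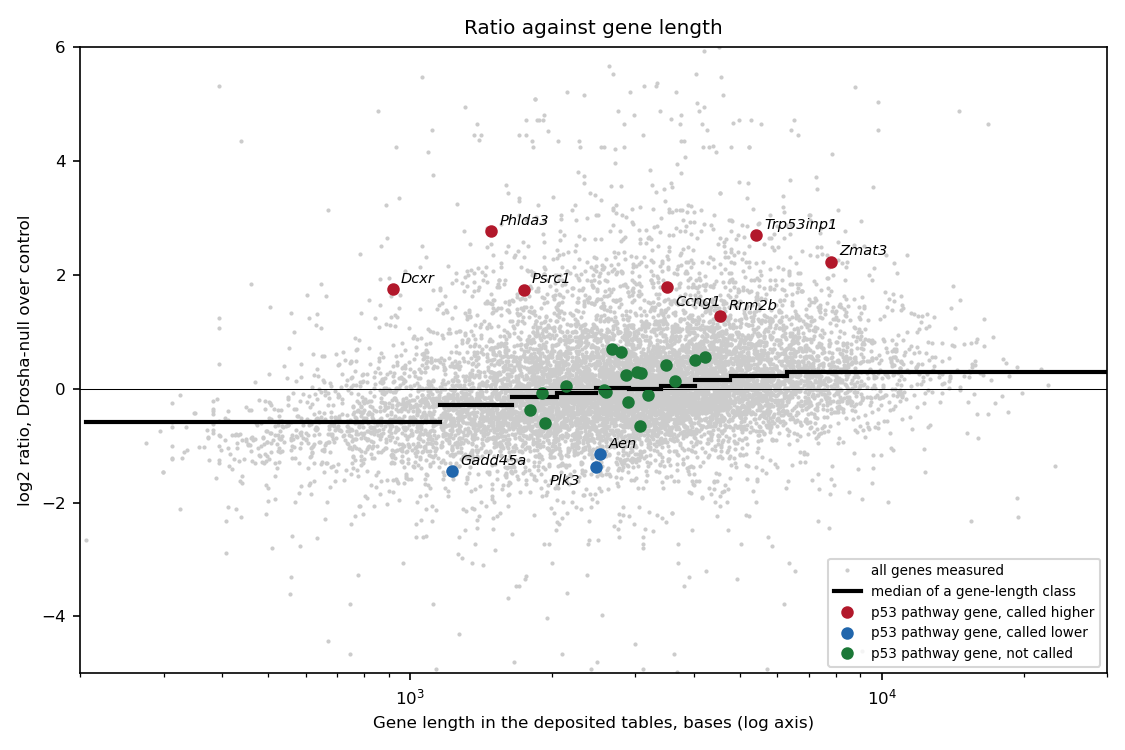
Log2 ratio of the Drosha-null library over the control against gene length on a log axis, with all measured genes in grey, black bars at the median of each of 10 gene-length classes, and the p53 pathway genes in red (called higher), blue (called lower) and green (not called). The p53 pathway genes with 0 control counts are left out. The genes called higher include the short Dcxr and Phlda3 as well as the long Zmat3.

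Other genes of the pathway were counted from 3 lists. Of 56 further p53 target genes, 32 were measured between the Drosha-null and control libraries, and 6 (18.8%) were called higher and 2 (6.25%) lower, beside 12.4% and 7.79% of all genes. Their median was 0.07, beside −0.02 for all genes. By total counts 11 of 33 were called higher and 1 lower, beside 23.0% of all genes higher, and the median was 0.61, beside 0.43. The highest by the lower end of the interval were Lpin1, a phosphatidate phosphatase gene (114, 17 and 11 counts in the Drosha-null, Ter119-low and control libraries; 2.91, 2.07 to 4.01), the thiamine transporter gene Slc19a2 (266, 57 and 37; 2.42, 1.94 to 2.98) and Cyfip2, a gene of the actin-regulating WAVE complex (102, 31 and 15; 2.32, 1.57 to 3.25). The apoptosis inhibitor gene Triap1 (44, 107 and 123; −1.88, −2.42 to −1.38) and the phosphatase gene Ptp4a3 (916, 1549 and 1621; −1.23, −1.35 to −1.11) were called lower. In the Ter119-low library over the control, 2 of 32 measured (6.25%) were called higher, beside 2.90% of all genes. They were the ferredoxin reductase gene Fdxr (22, 43 and 17 counts, ratio 1.23) and the lipid hydrolase gene Abhd4 (128, 64 and 27, ratio 1.15). Sco2, whose protein delivers copper to cytochrome oxidase, was the 1 gene called lower (3.12%, beside 2.76% of all genes). It had 48, 28 and 55 counts and a ratio of −1.05. The list was drawn up by name, and whether p53 acts on each of its genes was not tested here. That holds for its most abundant gene by control FPKM, the ribosomal protein gene Rps19. Rps19 stood at −0.70 in the Drosha-null library over the control.

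Of 31 measured regulators and partners of p53, 1 (3.23%, beside 12.4% of all genes) was called higher in the Drosha-null library over the control, the deubiquitinase gene Usp28 (150, 41 and 44 counts in the Drosha-null, Ter119-low and control libraries; 1.35, 0.87 to 1.88), and 1 (3.23%, beside 7.79%) lower, Banp, which encodes a nuclear protein that binds p53 (79, 145 and 123; −1.04, −1.47 to −0.63). The list median was −0.26, and 0.17 by total counts, where the median of all genes was 0.43 and the calls were 2 higher and 0 lower, beside 23.0% of all genes higher. Rpl11, which encodes a ribosomal protein that binds Mdm2 and was the most abundant gene of the list by control FPKM, had 3958 counts in the Drosha-null, 5416 in the Ter119-low and 5400 in the control library (−0.86 over the control, −0.92 to −0.80). In the Ter119-low library over the control, 0 of 31 were called either way, beside 5.66% of all genes.

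Genes known to be repressed by p53 through the DREAM complex, mostly genes of mitosis and replication, had 33 measured genes. Of these, 1 (3.03%, beside 12.4% of all genes) was called higher over the control, the mitotic kinase gene Nek2 (847, 307 and 247 counts in the Drosha-null, Ter119-low and control libraries; 1.37, 1.16 to 1.58), and 0 lower. By total counts 8 were called higher and 0 lower, beside 23.0% of all genes higher. The list median was 0.21, beside −0.02 for all genes, and by total counts 0.64, beside 0.43. Ube2c, the ubiquitin-conjugating enzyme of the anaphase-promoting complex and the most abundant gene of the list by control FPKM, stood at 0.57 (0.47 to 0.67). In the Ter119-low library over the control 0 of 33 were called either way, beside 5.66% of all genes.

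**Figure D4:**
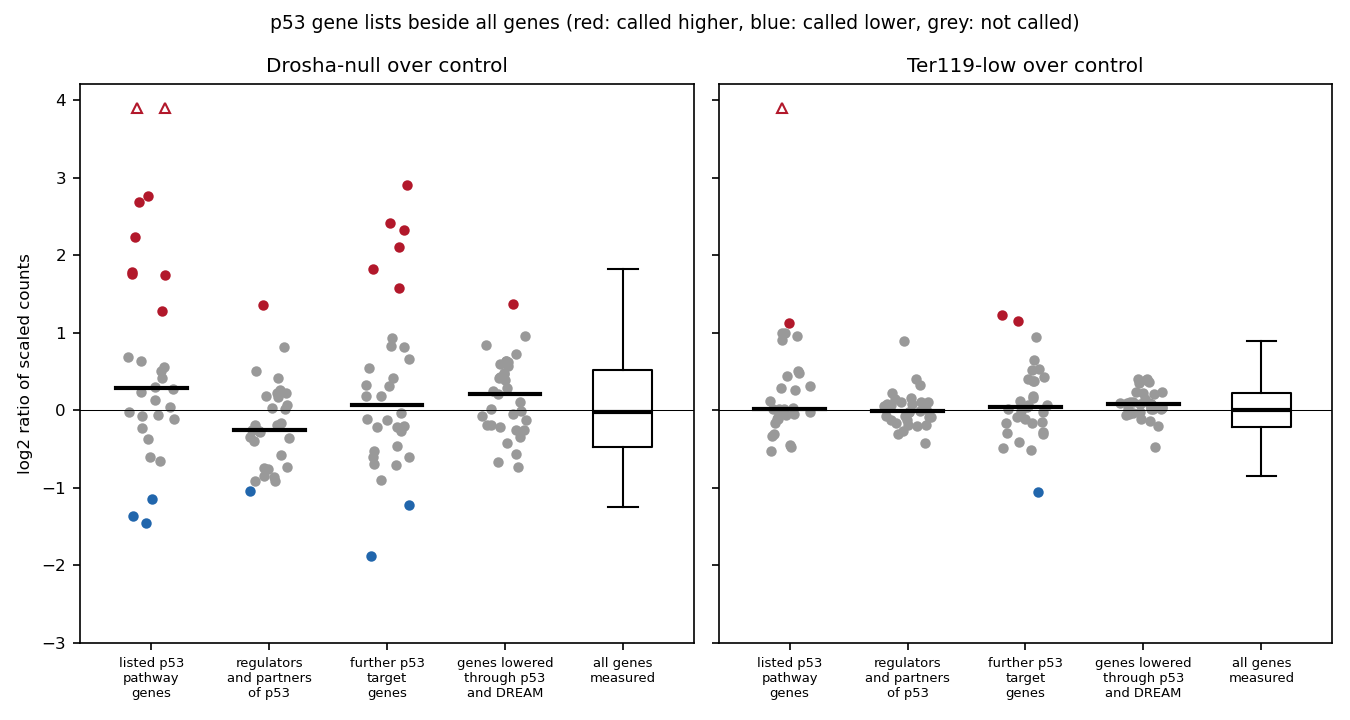
Log2 ratios of the listed p53 pathway genes and of 3 further lists in the Drosha-null and the Ter119-low library over the control, with 1 point per measured gene, black bars at list medians and, for all genes measured, a box from the lower to the upper quartile with whiskers at the 5th and 95th percentiles. Open triangles near the top edge mark genes with 0 control counts, whose ratio has no upper limit. The p53 pathway genes and further targets hold most of the red points, while the list lowered through DREAM has a single called gene, Nek2.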

How the data were processed

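The data came as 2 tables of a cKO library and the control each. They hold, per the file headers, the authors' expected counts (estimated reads per gene, some fractional) and the FPKM the authors computed from them, with 0.001 entered at 0 counts. They also hold the authors' deposited log2 ratios of FPKM, p-values and a false discovery rate from a test not named there, which are not reported here. The sources used here name no counting program, aligner, annotation or build.

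Joining on gene ID gave 15058 genes. Control counts differed for 0 of the 13882 shared genes, and a gene in 1 table alone was given 0 counts in the other. Counts were rounded to whole numbers and scaled by TMM (edgeR 4.0.16, R 4.3.3), and 0.5 counts were added before a ratio was taken. Intervals were computed with SciPy 1.17.1 under Python 3.11.15 and tested on simulated data. DESeq2 1.42.0 size factors, total counts, 2 filters, another size rule, FPKM and gene-length centring were alternatives. With 1 library per group no model across genes was fitted. Overlapping exons come from GENCODE M21. The members and lists were chosen with earlier results of these data known. All members are named; of the other lists, at most 3 called genes each way, ranked by the interval bound nearest 0, and the most abundant gene are. Depth was 9325814 to 9497425 counts per library, at which the floor of 3 counts is 0.269 CPM in the Drosha-null, 0.337 in the Ter119-low and 0.357 in the control library.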

Additional observations from a re-analysis of the deposited data

How the results depend on the processing

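No paired analysis was possible because each group has 1 library, and for the same reason no replicate could be left out. The counts of p53 pathway genes called in the Drosha-null library over the control were 9 higher and 3 lower. By total counts they were 11 and 1, and with a 5 CPM filter 5 and 2 (fewer genes measured). With a 1.5-fold rule they were 10 and 5, and without the most abundant genes in the total 9 and 2. In that order 36.7%, 20.8%, 33.3% and 30.0% of the measured p53 pathway genes were called higher. The shares of all genes called higher were 23.0%, 9.42%, 19.5% and 15.1%. Under the 1.5-fold rule 1897 of all 10769 genes were called lower. The median of 0.28 became 0.72 by total counts and by the authors' FPKM, 0.45 without the most abundant genes and 0.18 with the 5 CPM filter, while its distance from the median of all genes was 0.30 with TMM, 0.29 by total counts, 0.31 by FPKM, 0.28 without the most abundant genes and 0.24 with the 5 CPM filter. In the Ter119-low library over the control the number called higher was 2, 1 with the 5 CPM filter, 3 without the most abundant genes and 4 with the 1.5-fold rule. These were 6.90%, 4.17%, 10.3% and 13.8% of the measured p53 pathway genes, beside 2.90%, 0.752%, 3.39% and 5.13% of all genes. In the Drosha-null over the Ter119-low library the number called higher was 9 (30.0%), beside 10.8% of all genes. The number was 5 with the 5 CPM filter, 10 without the most abundant genes, 12 by total counts and 13 with the 1.5-fold rule. These were 20.8%, 33.3%, 40.0% and 43.3% of the measured p53 pathway genes, beside 7.95%, 13.7%, 18.7% and 18.2% of all genes. With length centring it was 10, beside 1131 of all 10795 genes. The median of 0.20 became 0.54 by total counts and by FPKM, 0.34 without the most abundant genes and 0.04 with the 5 CPM filter. Its distance from the median of all genes was 0.22 with TMM and by FPKM and 0.20 by total counts. That distance was 0.19 without the most abundant genes and 0.10 with the 5 CPM filter. Aen was not called over the control by total counts (−0.72) or without the most abundant genes (−0.98), and Plk3 not by total counts (−0.94). A change of library scaling shifts every log2 ratio of a comparison by the same amount. The cause of the other moves was not tested. Of 693 values of single genes under the alternatives, 624 stayed inside the counting interval, 69 left it and 0 called values changed sign. Genes with few counts (9630033F20Rik, Eda2r, Phlda3, Dcxr and Plk3) are limited by depth and drop out under the 5 CPM filter. The protein comparison planned was not run.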
